A study of Populus trichocarpa with 378 samples.

Results

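PtrAldOMT2 (Potri.012G006400) and its close paralog Potri.015G003100 were followed through RNA-seq libraries of stem-differentiating xylem from *Populus trichocarpa*, both transgenic and wildtype. Both genes were chosen by identifier, as 2 of the 41334 genes in the count table, by a rule that uses no measured value, although earlier results of these data were known at the time. The count table carries identifiers without gene names, so the name PtrAldOMT2 and the word paralog were taken with the identifiers, and the similarity of the gene copies was not examined here. Neither gene had a sequence or a genome position in the tables used.

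AldOMT is the aldehyde O-methyltransferase of monolignol biosynthesis. It transfers a methyl group from S-adenosylmethionine to the hydroxyl group that the coniferaldehyde hydroxylase CAld5H has placed on the ring, and its products are sinapaldehyde and sinapyl alcohol, the precursor of the S-subunits of lignin. Angiosperm wood is rich in S-subunits. A role in lignin has not been assigned here to the paralog.

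The data were RNA-seq counts of 378 libraries, of which 360 were transgenic and 18 wildtype. All trees had the genotype Nisqually-1, were grown for 6 months in a greenhouse, and belonged to one of 6 batches (NSF1 to NSF6) that were planted and harvested at different times, each with 3 wildtype libraries. A library was made from a pool of 3 to 5 clonally propagated trees, and its name gives construct, line and pool, so that i30-4-2 is pool 2 of line 4 of construct i30. All transgenes were driven by the xylem-specific promoter of a 4-coumarate:CoA ligase gene. Lines are separate transformation events, and the pools of a line share 1 event.

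Construct i30, in batch 6, carried an RNA interference hairpin of a fragment of the AldOMT2 cDNA and was represented by 3 lines with 3 pools each. The other 43 constructs, with 351 libraries, were directed at other genes. They were artificial microRNA constructs (names starting with a), RNA interference constructs (i) and overexpression constructs (o), and together they covered the monolignol families PAL, C4H, C3H, 4CL, HCT, CCoAOMT, CCR, CAD and CAld5H and the regulators LIM, MYB and KNOX1. Constructs o65 and o66 combined knockdown of CAD1 with overexpression of CAD2 and were treated as one. Library totals ranged from 2.12 to 93.5 M counts overall and from 10.0 to 18.5 M in i30. Markers of xylem or of other tissues could not be assigned to the identifiers, so the tissue label was not checked. In such bulk tissue, fewer cells that express a gene and less RNA per cell cannot be told apart.

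In wildtype xylem PtrAldOMT2 was among the most abundant transcripts, and the paralog was not. Levels were expressed as CPM, that is, counts scaled to one common library size after TMM scaling between libraries. Over the 18 wildtype libraries PtrAldOMT2 had a mean of 4558 CPM (SD 1692), and its place among all genes by CPM ran from 2nd to 21st. The paralog had a mean of 42.5 CPM (SD 26.6), with places from 2146 to 17499. CPM is not corrected for transcript length, so the genes were compared with each other only relative to wildtype. The counting method for reads that match more than one gene was not given, and reads shared between the copies may be split uncertainly.

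Both genes differed between wildtype trees of different batches. PtrAldOMT2 was at 3015, 2678 and 3426 CPM in batch 1, at 5188, 7266 and 7216 in batch 2, and at 4736, 5145 and 5057 in batch 3. It was at 3175, 2413 and 1734 CPM in batch 4, at 6663, 3280 and 6755 in batch 5, and at 5356, 4561 and 4372 in batch 6. Batches 1 and 4 were low, and replicate 2 of batch 5 stood 2.06-fold below the highest library of its batch. The paralog was lowest in the same batches, with 5.86 to 19.0 CPM in batch 1 and 7.03 to 15.5 CPM in batch 4, against 31.6 to 91.8 CPM over the other batches. Its range in batches 1 and 4 did not overlap its range in the others. These batches were grouped by the levels seen, and the share of all genes separated in this way was not computed.

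In an F-test over all batches (edgeR quasi-likelihood, Benjamini-Hochberg adjustment over 27573 genes) the adjusted p was 0.0043 for PtrAldOMT2 and 0.00047 for the paralog. Such differences were common, since 54.5% of the genes tested passed the same threshold of 0.05. Without replicate 3 of every batch the adjusted p of PtrAldOMT2 was 0.122 and that of the paralog 0.021. All further levels are therefore given as percent of the wildtype mean of the same batch.

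**Figure D1:**
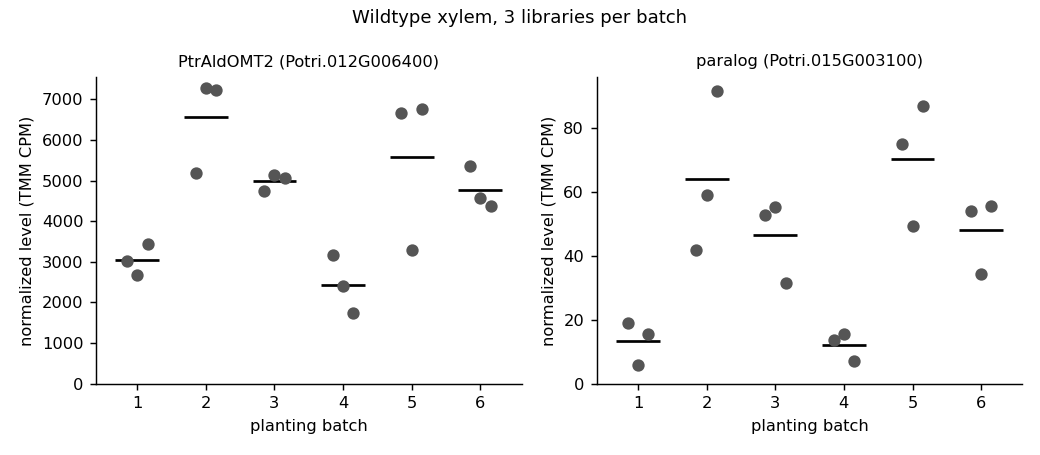
Level of PtrAldOMT2 (left) and of the paralog (right) in wildtype xylem, in TMM-scaled CPM, by planting batch. Points are libraries, 3 per batch, and bars are means. Both genes were lower in batches 1 and 4 than in most libraries of the other batches.

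PtrAldOMT2 was below wildtype in every library of its knockdown construct i30, with a wide spread between lines. The 3 wildtype libraries of batch 6 were at 112, 95.8 and 91.8% of their mean. The pools of line i30-1 were at 5.04, 4.30 and 2.82%, which corresponds to 240, 205 and 135 CPM. The pools of line i30-4 were at 6.00, 58.6 and 5.86%, or 286, 2790 and 279 CPM. The pools of line i30-15 were at 57.8, 62.3 and 79.6%, or 2751, 2969 and 3791 CPM. All 9 libraries were below the lowest wildtype library. They fell into 5 libraries under 10% and 4 above 50%, with i30-4-2 apart from the other pools of its line.

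The paralog was low in the same libraries. In wildtype of batch 6 it was at 113, 71.3 and 116% of the mean. In line i30-1 it was at 3.84, 1.17 and 0.474%, from 36, 10 and 4 counts. In line i30-4 it was at 7.34, 44.7 and 8.89%, from 37, 382 and 67 counts. In line i30-15 it was at 8.73, 14.3 and 35.4%, from 72, 121 and 309 counts. All 9 libraries were below the lowest wildtype library, which had 609 counts. The counts of the paralog in line i30-1 were small, and the exact Poisson 95% interval of the 4 counts in i30-1-3, which covers counting error only, ran from 0.129 to 1.21% of wildtype.

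**Figure D2:**
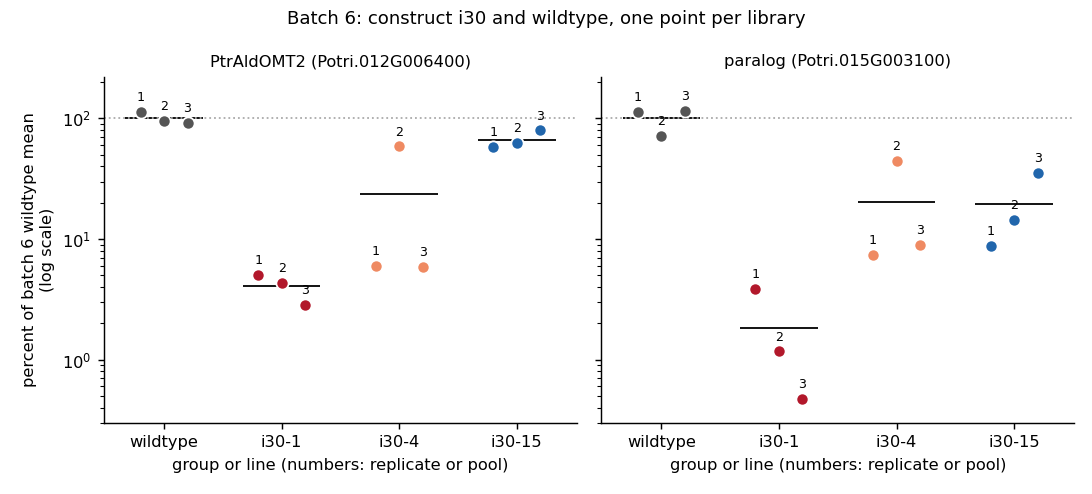
PtrAldOMT2 (left) and the paralog (right) in wildtype and in the 3 lines of construct i30 in batch 6, as percent of the wildtype mean on a log axis. Points are libraries with their replicate or pool number, and bars are means. All 9 libraries of i30 lie below the 3 wildtype libraries for both genes, and i30-4-2 lies at 58.6 and 44.7%.

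As 1 group of 9 libraries, i30 did not pass the test for either gene. The mean of PtrAldOMT2 was 31.4% of wildtype (SD 32.1, n = 9), with a log2 fold change of -1.67 (SE 0.92, adjusted p = 0.332, edgeR quasi-likelihood test). The mean of the paralog was 13.9% (SD 15.6, n = 9), with a log2 fold change of -2.84 (SE 0.82, adjusted p = 0.126 in the same fit). In this comparison 0.598% of the 26937 genes tested passed as lower. The paralog passed when all libraries of batch 6 were fitted together (adjusted p = 0.0348) and when line i30-1 was left out (adjusted p = 0.0485). It did not pass with lines as replicates (0.289) or in DESeq2 (0.0798). Without wildtype replicate 1, 2 or 3 its adjusted p was 0.520, 0.204 or 0.350. PtrAldOMT2 passed in none of these runs, with an adjusted p of 0.358 with lines as replicates. An exact two-sided permutation test of log2 CPM over the 12 libraries, chosen after seeing the data, gave p = 0.050 for PtrAldOMT2 and p = 0.0227 for the paralog, where the smallest p possible was 0.0045. That test took the 9 pools as independent, although the pools of a line share 1 transformation event.

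Tested line by line, the lines differed. In line i30-1 PtrAldOMT2 fell by 4.63 on the log2 scale (SE 0.82, adjusted p = 0.0041, edgeR) and the paralog fell by 5.73 (SE 0.89, adjusted p = 0.0033). In that line 16.4% of the genes tested passed as lower. Library i30-1-3 also stood apart from the other i30 libraries over all genes, as given below.

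In line i30-4 the log2 fold change was -2.09 for PtrAldOMT2 (SE 0.73, adjusted p = 0.287) and -2.26 for the paralog (SE 0.71, adjusted p = 0.235). Here 0.104% of genes passed as lower. Without i30-4-2, a library left out after seeing the data, PtrAldOMT2 in this line was at -4.07 with an adjusted p of 0.0013, and the paralog at -3.61 with an adjusted p of 0.167. Library i30-4-2 held 10.0-fold more PtrAldOMT2 than the lowest pool of its own line. This was the widest spread of PtrAldOMT2 among the 104 transgenic lines with 3 pools, whose median ratio of highest to lowest pool was 1.25. Line i21-8, with 2 pools, spread wider and is given below.

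In line i30-15 the log2 fold change of PtrAldOMT2 was -0.59 (SE 0.71, adjusted p = 0.657) and that of the paralog -2.36 (SE 0.71, adjusted p = 0.0665). Here 4.85% of genes passed as lower. The adjusted p of the paralog in this line was between 0.0234 and 0.0495 when i30-1-1, i30-1-3 or i30-4-2 was left out of the fit, and between 0.0605 and 0.212 when any other library of i30 or wildtype was. An F-test of any difference between the 3 lines gave adjusted p = 0.0156 for PtrAldOMT2 and 0.0298 for the paralog, where 27.5% of all genes passed. PtrAldOMT2 was higher in i30-15 than in i30-1 by 4.04 on the log2 scale (SE 0.80, adjusted p = 0.0199). The difference of i30-15 from i30-4 was 1.50 for PtrAldOMT2 (SE 0.72, adjusted p = 0.275) and -0.10 for the paralog (SE 0.70, adjusted p = 0.967).

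The ratio of the genes was described line by line, and no test compared it between the lines. The ratio of PtrAldOMT2 to paralog CPM was 98.8, 133 and 78.6 in wildtype of batch 6. In line i30-4 it was 81.0, 130 and 65.4, close to wildtype. In line i30-15 it was 656, 431 and 223, above every wildtype library of the batch, and in line i30-1 it was 130, 364 and 591. The ratios of line i30-1 rest on 36, 10 and 4 counts of the paralog. Over the 9 libraries the mean log2 ratio was 1.12 above wildtype. This did not pass an exact two-sided permutation test (p = 0.164, 9 against 3 libraries, and 0.3 with lines as replicates). The paralog kept a smaller percent of wildtype than PtrAldOMT2 in 7 of the 9 libraries, the exceptions being i30-4-1 and i30-4-3.

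A lower percent for the paralog than for PtrAldOMT2 was also the usual state outside i30. It was seen in 275 of the 351 other transgenic libraries (78.3%) and in 8 of the 18 wildtype libraries. The median over the other transgenic libraries was 87.6% of wildtype for PtrAldOMT2 and 61.4% for the paralog. The ratio test was repeated in the other 43 constructs after the i30 result was known. Over all 44 constructs the ratio was higher at an unadjusted exact p under 0.05 in 10 and lower in 0, and 0 passed after adjustment over the 44, with a smallest adjusted p of 0.115. In 7 constructs with 3 libraries, full separation from wildtype gives a two-sided exact p of 0.1, so they could not be counted. Among these the ratio was below every wildtype library in all 3 libraries of a3 and above in all 3 of a5. Over all 378 libraries the ratio ran from 42.3 in i15-3-2 to 2307 in a43-13-2, where the paralog had 4 counts.

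**Figure D3:**
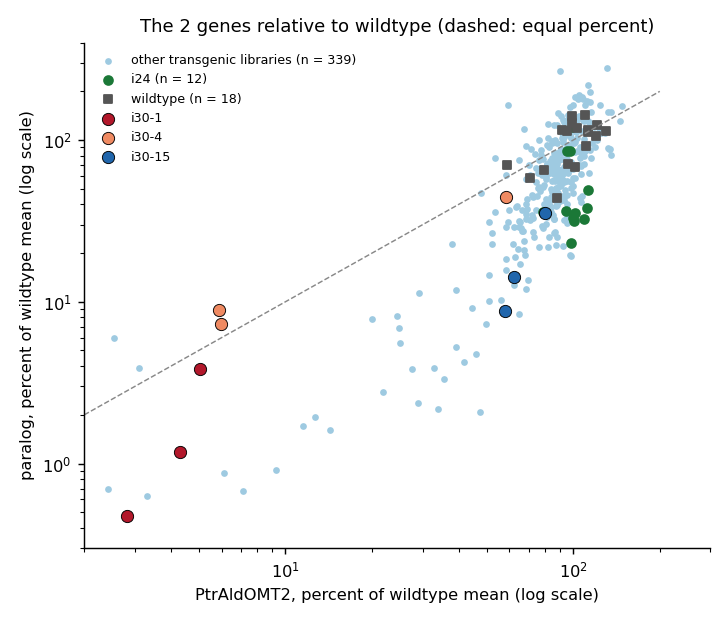
Percent of wildtype of the paralog against that of PtrAldOMT2, both on log axes, for 378 libraries. Each point is a library, squares are wildtype, and the dashed line marks equal percent. Line i30-4 lies near the dashed line, line i30-15 below it, and most of the 12 libraries of i24 lie below it near 100% PtrAldOMT2.

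Construct i24 was directed at CCoAOMT1 and CCoAOMT2, which methylate caffeoyl-CoA earlier in the pathway. PtrAldOMT2 ran from 78.4 to 113% of wildtype over the 12 libraries, with a mean of 99.9% (SD 9.13, n = 12) and a log2 fold change of 0.00 (SE 0.10). The paralog ran from 23.0 to 120%, with a median of 36.0%. Of the 12 libraries, 9 were below the wildtype range for the paralog and 1 for PtrAldOMT2. The paralog had a log2 fold change of -0.99 (SE 0.38, adjusted p = 0.0961, edgeR), which did not pass, and 0.0494 with lines as replicates. The ratio of the genes had an adjusted exact p of 0.15 in i24.

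The level of PtrAldOMT2 was below wildtype in most constructs, by amounts that passed the test in 1. The mean over the libraries of a construct was below 100% of wildtype in 39 of 44 constructs, with a median of 85.4% and a range from 21.0% in i15 to 109% in a2. Only i15 was lower than i30. The test passed in 1 of 44 constructs (i15), in the lower direction, where over all genes and constructs 2.16% of tests passed as lower and 2.50% as higher, so the share of calls for PtrAldOMT2 was about that of all genes. All libraries were below the wildtype range for PtrAldOMT2 in i15, i20, i21, i30 and i35, and 13 of 15 were in o65 and o66. That range rests on 3 libraries, and the share of all genes below it was not computed for any construct. In i21 the adjusted p of PtrAldOMT2 was 0.807 (edgeR). PtrAldOMT2 passed as higher in 0 constructs in edgeR, with 0 at an unadjusted p under 0.05 and 0 in DESeq2. DESeq2 called 4 constructs lower. The share of DESeq2 calls over all genes is not given here.

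The paralog had a mean below 100% in 36 of 44 constructs, with a median of 62.3% and a range from 6.99% in i15 to 161% in a2. It passed as lower in 4 of 44 constructs (i15, i20, i35 and a17), against 2.16% of all gene by construct tests. It passed as higher in 0 constructs in edgeR, with 1 at an unadjusted p under 0.05. DESeq2 called it higher in 0 constructs and lower in 7. The share of DESeq2 calls over all genes is not given, so the 7 cannot be set against 2.16%. At an unadjusted p under 0.05 PtrAldOMT2 was lower in 6 constructs and the paralog in 18. Over all genes, in both directions, the number at that level ran from 1136 of 27045 in i21 to 16769 of 26808 in i15. The counts of 6 and 18 are therefore a description. The median log2 fold change over the 44 constructs was -0.23 for PtrAldOMT2 and -0.67 for the paralog, while the median over all genes in a construct lay between -0.03 and 0.05. The 44 comparisons share their wildtype libraries within a batch.

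**Figure D4:**
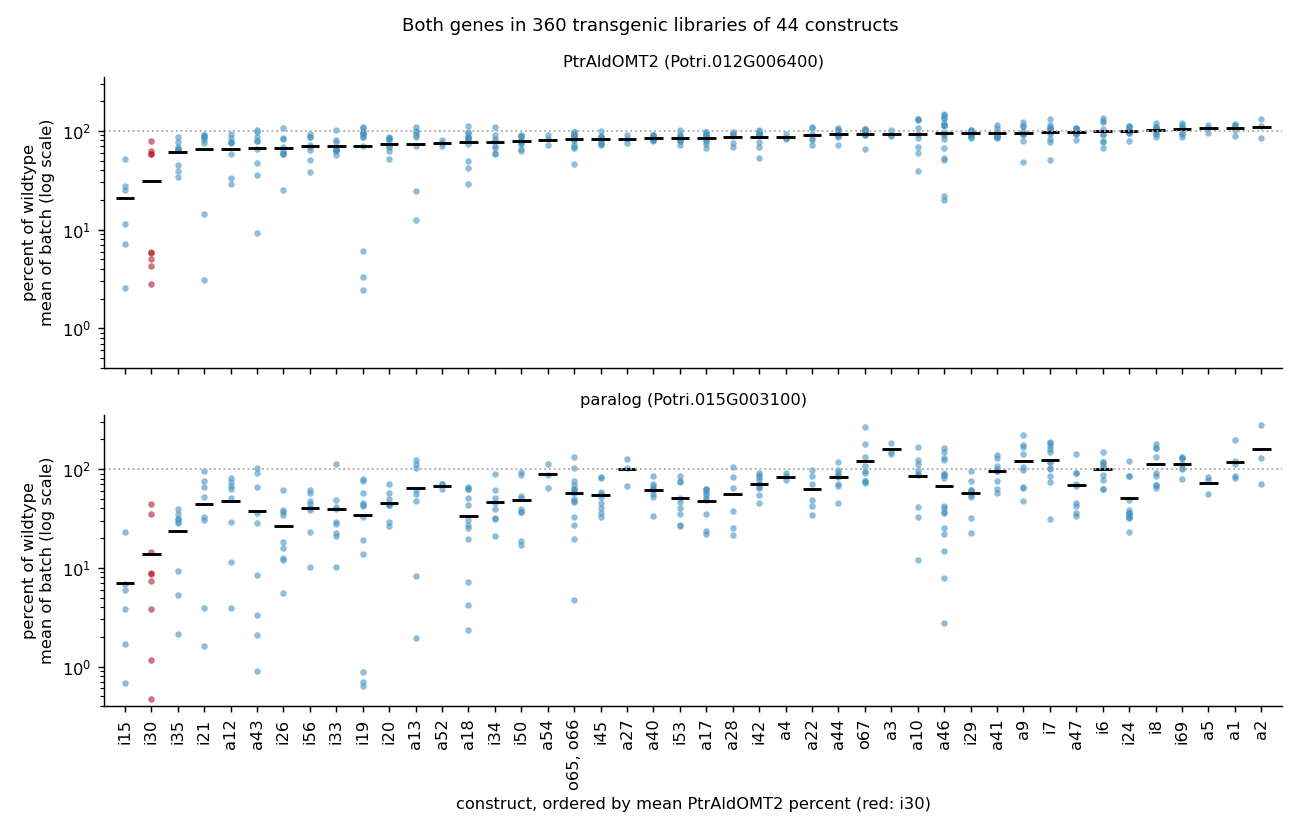
Percent of wildtype of PtrAldOMT2 (top) and the paralog (bottom) on log axes in 44 constructs, ordered by the mean of PtrAldOMT2. Points are libraries (red for i30) and bars are means. Means of PtrAldOMT2 run from 21.0% in i15 to 109% in a2, and i30 is second from the left.

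Construct i15 was directed at 4CL3 and 4CL5, the ligases that activate hydroxycinnamic acids with coenzyme A. PtrAldOMT2 was at 27.5% in the pool of line 1, at 24.9 and 52.3% in the pools of line 2, and at 7.13, 2.53 and 11.5% in those of line 3. All 6 libraries were below the wildtype range of batch 6. The log2 fold change was -2.27 (SE 0.75, adjusted p = 0.0295, edgeR). The adjusted p was 0.0751, 0.0656 and 0.0641 when wildtype replicate 1, 2 or 3 was left out, and 0.158 after adjustment over all constructs together. The paralog was between 0.680 and 22.9% of wildtype, with a log2 fold change of -3.85 (SE 0.78, adjusted p = 0.0040). In i15 25.9% of all genes tested passed as lower.

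Construct i35 was directed at CAD1 and CAD2, the dehydrogenases of the last step to the monolignols. Its 9 libraries had PtrAldOMT2 between 33.9 and 87.3% of wildtype and the paralog between 2.16 and 39.4%, all below wildtype of batch 3. The paralog fell by 2.11 on the log2 scale (SE 0.61, adjusted p = 0.0316, edgeR), and PtrAldOMT2 was at -0.73 (SE 0.27, adjusted p = 0.0739). In i35 8.81% of genes passed as lower. Without wildtype replicate 1 or 2 the adjusted p of the paralog was 0.104 or 0.115. It was 0.133 with lines as replicates and 0.0898 after adjustment over all constructs together, and PtrAldOMT2 passed in DESeq2 (0.0247) and with the batch in one fit (0.0025).

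Construct i20 was directed at C3H3, the hydroxylase of the p-coumaroyl ester. The 8 libraries had the paralog between 26.6 and 70.7% of wildtype, and 7 of them were below the wildtype range. The paralog fell by 1.13 on the log2 scale (SE 0.26, adjusted p = 0.0235, edgeR), with 5.63% of genes passing as lower. PtrAldOMT2 was between 52.3 and 87.6% of wildtype, with a log2 fold change of -0.45 (SE 0.16, adjusted p = 0.0802). Without wildtype replicate 1 or 2 the adjusted p of the paralog was 0.0724 or 0.118. It was 0.161 with lines as replicates, of which there were 3, and 0.142 with the batch in one fit, and PtrAldOMT2 passed in DESeq2 (0.0234).

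Construct a17 was directed at HCT1, the transferase that makes the shikimate ester. The 10 libraries had the paralog between 21.8 and 62.6% of wildtype, all below the wildtype range of batch 5. It fell by 1.06 on the log2 scale (SE 0.28, adjusted p = 0.0370, edgeR), with 4.34% of genes passing as lower. PtrAldOMT2 was between 67.3 and 98.0%, with a log2 fold change of -0.23 (SE 0.19, adjusted p = 0.486). All 10 libraries were above wildtype replicate 2 of the batch (58.9%) and below replicates 1 and 3 (119.7 and 121%). Without replicate 2 the log2 fold change of PtrAldOMT2 was -0.51 with an adjusted p of 0.047. The runs without replicate 1 or 3 are not given for PtrAldOMT2. Without wildtype replicate 1 or 3 the adjusted p of the paralog was 0.0780 or 0.172. It was 0.387 with the batch in one fit, 0.0908 with lines as replicates and 0.0571 after adjustment over all constructs together.

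Construct i26, directed at the cinnamoyl-CoA reductase CCR2, had the paralog between 5.58 and 61.6% of wildtype. Of its 9 libraries, 8 were below the wildtype range, yet the log2 fold change of -1.90 (SE 0.51) had an adjusted p of 0.281 in edgeR, and DESeq2 called it (adjusted p = 0.0463). Construct a18, directed at HCT6, had the paralog between 2.36 and 66%, with all 12 libraries below wildtype and an adjusted p of 0.544. In edgeR 0 of 30317 genes passed as lower in i26 and 12 of 27267 in a18. The share of all genes below the wildtype range was not computed. In i19, directed at HCT1 and HCT6, the adjusted p was 0.913 for PtrAldOMT2 and 0.839 for the paralog. There 0 of 27933 genes passed as lower. The PtrAldOMT2 values of i19 below the wildtype range came from line 7 alone, whose 3 pools had PtrAldOMT2 at 6.14, 2.43 and 3.32% and the paralog at 0.872, 0.695 and 0.632% of wildtype. The paralog values of this line rest on 6 to 9 counts.

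CAld5H makes the substrate of AldOMT. In constructs directed at it all libraries had PtrAldOMT2 above wildtype replicate 2 of batch 5, the low library of that batch, and below replicates 1 and 3. In i29, directed at CAld5H1 and CAld5H2, the 9 libraries ran from 84.9 to 102%, with a log2 fold change of -0.09 (SE 0.20, adjusted p = 0.892, edgeR), or -0.37 without wildtype replicate 2 (adjusted p = 0.162). In a27, directed at CAld5H1, the 3 libraries were pools of 1 line and ran from 74.6 to 91.3% (adjusted p = 0.638, edgeR). In that fit 1382 of 25660 genes passed as lower and 2195 as higher. In a28, directed at CAld5H2, the 6 libraries ran from 69.2 to 97.3% (adjusted p = 0.712). Without wildtype replicate 2 the adjusted p was 0.0217 in a27 and 0.171 in a28. For a27 and a28 the runs without replicate 1 or 3 are not given here. The paralog went below the ranges of PtrAldOMT2 in part of the libraries of i29, a27 and a28. It ran from 22.5 to 96.7% in i29, where 7 of 9 libraries were below wildtype (log2 fold change -0.81, SE 0.32, adjusted p = 0.329). It ran from 21.7 to 105% in a28, with 4 of 6 libraries below wildtype, and from 67.6 to 126% in a27, with 1 of 3.

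Of the constructs directed at MYB regulators, none passed for either gene in the edgeR test against the 3 wildtype libraries. MYB002, MYB003, MYB020 and MYB021 are known as master switches of secondary wall formation in poplar. In i56 (MYB003 and MYB020) PtrAldOMT2 ran from 37.9 to 92.6% and the paralog from 10.2 to 61.8%, with all 8 libraries below wildtype for the paralog (log2 fold change -1.33, SE 0.39, adjusted p = 0.258). In i53 (MYB002 and MYB021) PtrAldOMT2 ran from 72.5 to 103% and the paralog from 26.5 to 85.4%, with 6 of 9 libraries below wildtype (-0.93, SE 0.31, adjusted p = 0.0966). In i45 (MYB090 and MYB167) PtrAldOMT2 ran from 72.2 to 99.5% and the paralog from 33.1 to 83.0%, with 7 of 9 libraries below (-0.89, SE 0.27, adjusted p = 0.0668). The paralog in i45 passed in DESeq2 (adjusted p = 0.0357) and in edgeR with the replicate block (adjusted p = 0.0475).

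In a43 (MYB167) line 13 was low in both genes, with PtrAldOMT2 at 9.28, 47.3 and 35.5% and the paralog at 0.910, 2.09 and 3.33%. The other 6 libraries of a43 had PtrAldOMT2 between 65% and 103%, and as a group a43 had adjusted p = 0.594 for PtrAldOMT2 and 0.513 for the paralog (edgeR), or 0.0227 for the paralog with all libraries of batch 2 in one fit. In a46 (MYB156) PtrAldOMT2 ran from 20.1 to 148% over 17 libraries, which includes the highest percent of the series, with an adjusted p of 0.980.

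No library outside i30 reached 150% of wildtype for PtrAldOMT2, and 17 of 351 did so for the paralog. The share of all genes at that level was not computed. The 17 included libraries of batch 1, where the wildtype libraries had 39 to 120 counts of the paralog. In a3, directed at PAL4, the paralog ran from 142 to 185% in the 3 libraries, with a log2 fold change of 0.66 (SE 0.25, adjusted p = 0.198, edgeR). Without wildtype replicate 3 it was 0.99 with an adjusted p of 0.0361, and the runs without the other wildtype replicates are not given here. Construct a3 was the one with an unadjusted p under 0.05 in the higher direction.

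Low PtrAldOMT2 also occurred in single libraries of other constructs. Outside i30, 20 of 351 libraries were under 35% of wildtype, a bound chosen to list them, and 7 were under 10%. The 7 were the 3 pools of i19-7, i15-3-1, i15-3-2, i21-8-2 and a43-13-1. In i21-8 pool 1 was at 75.8% and pool 2 at 3.11%, and in i21-6 pool 1 was at 14.3% with the others at 89.8 and 87.6%. Library a43-13-1 was the shallowest of the series, with 2.12 M counts, and its paralog value rests on 1 count. Over the 104 lines with 3 pools, the highest pool exceeded the lowest by more than 2-fold in 15 lines for PtrAldOMT2 and in 53 for the paralog.

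The low libraries were also described by how far the rest of the transcriptome stood from wildtype. The distance of a library was the root mean square, over genes averaging 1 CPM or more in the batch, of the differences between its log2 CPM and the mean of the batch's wildtype. Wildtype libraries, set against the other 2 of their batch, were between 0.336 and 0.792. The 5 i30 libraries under 10% of wildtype were at 0.594, 0.736 and 1.24 (i30-1) and at 0.471 and 0.512 (i30-4-1 and i30-4-3). The 7 libraries under 10% in other constructs were between 1.67 and 2.21, and the 20 under 35% were between 0.893 and 2.21. The ranges of the 5 and the 7 libraries did not overlap, while i30-1-3 lay inside the range of the 20. Since these libraries were picked by their PtrAldOMT2 level, no test was made, and what the distance contributes to the level of either gene was not tested.

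**Figure D5:**
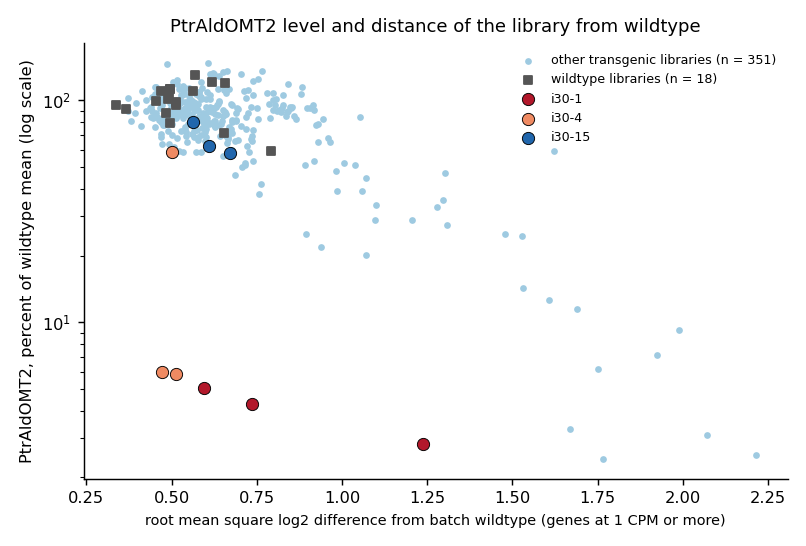
PtrAldOMT2 as percent of wildtype (log axis) against the distance of each library from the wildtype of its batch, in log2 units, taken over genes averaging 1 CPM or more. Points are transgenic libraries and squares wildtype. In i30-1 and i30-4 the level was under 10% at distances from 0.471 to 1.24, and in other constructs at distances from 1.67 to 2.21.

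The pattern of each gene over the 369 libraries outside i30 was set against that of 25797 genes averaging 1 CPM or more. Likeness was the Pearson correlation of log2 CPM after the mean of the batch was taken off, given as a description over libraries that share batches, lines and depth. The genes most like PtrAldOMT2 were Potri.009G011100 and Potri.010G141600, both with r = 0.983. The genes most like the paralog were Potri.006G123200 (r = 0.881) and Potri.010G207200 (r = 0.869). The paralog itself had r = 0.804 with PtrAldOMT2, which placed it 1458th in the order for PtrAldOMT2, and PtrAldOMT2 was 400th in the order for the paralog. With i30 included (378 libraries) these places were 284 and 90, and the leading genes were Potri.002G099200 (r = 0.857) for PtrAldOMT2 and Potri.003G052100 (r = 0.841) for the paralog.

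Within batches the members were also correlated over the means of lines and of wildtype, with i30 left out. The correlation was between 0.819 in batch 1 (n = 14 means) and 0.923 in batch 3 (n = 23 means). In i30 the like genes did not go as low as the pair. Potri.009G011100 had a median of 66.7% of wildtype over the 9 libraries (range 38.9 to 95.3%), and Potri.010G141600 had a median of 79.1% (42.2 to 90.9%). Potri.006G123200 had a median of 59.4% (31.4 to 91.8%) and Potri.010G207200 of 81.7% (38.8 to 91.6%). PtrAldOMT2 and the paralog had medians of 6.00 and 8.73% in the same libraries.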

How the data were processed

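The authors sequenced RNA of stem-differentiating xylem on the Illumina GAIIx from TruSeq libraries, aligned the reads with Bowtie and TopHat against version v3.0 of the poplar genome, and took gene counts from BedTools. The deposited table gives raw counts, one column per library, that precede the TMM scaling of the authors. It holds 41334 genes, 531 of them without a count anywhere, and columns outside the labelled samples numbered 0. For 1 library of a12 the pool number in the column differed from the label, and the library entered with its construct only. The handling of reads that match several genes is not given in the sources used here.

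The 2 genes and all lists were chosen with earlier results of these data known. Of the reference table of gene names (assembly P.trichocarpa_v4.1), 0 entries matched the identifiers, so the lists of other monolignol genes, methyl donor enzymes and tissue markers that had been drawn up were not used. Genes named beside the pair were the 2 most correlated with each.

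Tests used R 4.3.3 with edgeR 4.0.16: each construct against the 3 wildtype libraries of its batch, with filterByExpr, TMM factors, glmQLFit and glmQLFTest, Benjamini-Hochberg adjustment over all genes tested and a threshold of 0.05. SE is the absolute log2 fold change divided by the square root of F. DESeq2 1.42.0 was an alternative, with other scaling, filters, reference libraries, replicate block, pooled lines and omitted libraries. Both tools were tested on simulated data with 200 changed genes. The ratio of the genes was tested by exact permutation. Percent of wildtype is TMM-scaled CPM over the wildtype mean of the batch, and log2 CPM for likeness and distance used a prior count of 2. Further tables, permutation tests and plots were made in Python 3.11.15 (packages pandas 2.3.3, matplotlib 3.10.9, NumPy 2.4.6 and SciPy 1.17.1). Pool numbers were checked for pairing by the correlation of same-numbered deviations from the group means, and in 1 of 39 constructs (i45) every one was over 0.1. The pools of a line come from 1 transformation event, so p-values over pools measure the spread between pools as well as lines. Totals ranged from 2.12 to 93.5 M counts per library, and intervals of counts cover counting error only.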

Additional observations from a re-analysis of the deposited data

Results flagged for a closer look

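The lines of i30 differed from each other under the same contrast with wildtype, with adjusted p = 0.0156 for PtrAldOMT2 and 0.0298 for the paralog (edgeR quasi-likelihood F-test). In 4 constructs 1 library stood apart from the rest of its construct in log2 CPM of PtrAldOMT2, by the gap to the nearest library relative to the range. These were o67-15-3 at 65% of wildtype, a43-13-1 at 9.28%, a9-2-3 at 47.9% and i26-10-3 at 25.0%. Of 62 groups examined over both genes, chance would give 3.1 such libraries. Each of the 4 was the lowest library of its construct for PtrAldOMT2, and their distances from wildtype over all genes were 0.963, 1.99, 0.983 and 0.893.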

How the results depend on the processing

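The direction of both genes in i30 was the same in every alternative run. The log2 fold change of the paralog in i30 passed the threshold at -2.83 with all libraries of the batch in one fit and at -2.29 without line i30-1. The difference in mean log2 CPM was -3.86, with an unadjusted exact permutation p of 0.0227 over pools taken as independent. The number of constructs with PtrAldOMT2 called was 0 after adjustment over all constructs together, 2 with the batch in one fit, 4 in DESeq2, and 0 to 3 when a wildtype replicate was left out. For the paralog it was 2 after joint adjustment, 7 in DESeq2, 2 with lines as replicates, and 1 to 4 when a wildtype replicate was left out. The share of all genes called in these runs is not given. With 1 library left out, PtrAldOMT2 in line i30-4 ran from -4.07 to -1.62 and the paralog in i30-15 from -3.11 to -2.01. DESeq2 gave no adjusted p for PtrAldOMT2 in the lines. The adjusted p of PtrAldOMT2 across wildtype batches ran from 0.0347 to 0.122 when a replicate was left out. Changes of sign occurred only in results that were not called. For PtrAldOMT2 in i24 the values were 0.0058 with the batch in one fit, 0.0052 with lines as replicates, 0.0078 without a filter and -0.065 to 0.092 when a wildtype replicate was left out. With 1 library left out, PtrAldOMT2 ran from -0.033 to 0.28 in a2 and from -0.00090 to 0.12 in a5, and the paralog from -0.00042 to 0.36 in a1, from -0.064 to 1.08 in a2 and from -0.23 to 0.20 in a27, where it was 0.0097 without a filter. With a wildtype replicate left out, PtrAldOMT2 ran from -0.37 to 0.082 in i29 and from -0.28 to 0.13 in a46. The cause of these changes was not tested.

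Pool numbers did not pair the samples except in i45, where every same-number correlation was over 0.1. In i30 these correlations ran from -0.056 to 0.047. With the replicate block, PtrAldOMT2 was called in 0 constructs, and the paralog was called as lower in i15, i20 and i45. All 3 libraries of a3 were pool 1, so the block set them against wildtype replicate 1 alone, with PtrAldOMT2 at 0.23. No call is read from that fit. With the block 3 calls were not made (edgeR adjusted p = 0.0583 for PtrAldOMT2 in i15, 0.0647 and 0.0710 for the paralog in i35 and a17). The i30 values were -1.74 and -3.07, and PtrAldOMT2 in i24 was at 0.0017. The adjusted p across wildtype batches was 0.0084 and 0.0012. The comparison of other monolignol genes in i30 was not run. Depth limits the paralog most, with 1 to 10 counts in the lowest libraries.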
